A study of Arabidopsis thaliana with 12 samples.

Results

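The comparison described here set whole Arabidopsis seedlings held in 10 µM cycloheximide (CHX) against seedlings held in 1 µM CHX. All 12905 genes with deposited counts were members, and the libraries were 6 of the 12 of the series, 3 at each of these doses. The seedlings were wild type, ecotype Col-0, 2 weeks old, and had stood in water before being moved to CHX for 2 h in light of 30 µE. The other libraries, 3 at 0 µM and 3 at 100 µM, shared this genotype, age and treatment time and served to place the step between 1 and 10 µM among the neighbouring steps. RNA with a poly(A) tail was counted from its 3′ end by bulk MARS-seq. The doses are those of the labels, since the study's methods describe CHX at 100 µM alone. Its list of data sets gives another record for CHX and assigns the record used here to the flu mutant. The methods name pools of whole seedlings as biological replicates for RNA extraction, but the labels do not tell whether the libraries of a dose stem from separate pools, so each p-value covers no more than the spread of these libraries.

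CHX binds the large subunit of cytosolic ribosomes and blocks translocation, so that peptide chains stop growing, while the ribosomes of plastids and mitochondria are not its target. Many stress and hormone genes of plants are held down by short-lived repressor proteins, and their transcripts are also turned over rapidly. An accumulation of such transcripts under a block of translation is known as superinduction, and genes for factors of the AP2/ERF, WRKY and C2H2 zinc finger families are typical examples.

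Total counts were 2823964 to 3724564 at 10 µM and 2317260 to 2564533 at 1 µM, so the libraries at 10 µM were deeper. A sum of 3 counts over a dose, used as the floor in bounds for genes with 0 counts, equalled 0.361 CPM (counts scaled to the size of each library) at 10 µM and 0.358 CPM at 1 µM. The 10 most abundant genes took 9.42% to 9.62% of the counts at 10 µM and 7.28% to 7.39% at 1 µM. On the first principal component of these 6 libraries (65.5% of the variance) the 10 µM libraries lay between 38.1 and 61.9 and the 1 µM libraries between −55.7 and −41.6. Replicate 2 at 10 µM and replicate 3 at 1 µM lay nearest to the opposite dose.

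With libraries scaled by TMM, a trimmed mean of gene ratios, rises at 10 µM outnumbered falls. At 10 µM 1579 genes were called higher (12.2% of those tested) and 643 were called lower (4.98%), where a call required an adjusted p under 0.05 in edgeR and a change of at least 2-fold. The median log2 change was 1.91 among the rises and −1.32 among the falls, against 0.00 over all genes. Changes beyond 8-fold were seen for 289 genes called higher and 17 called lower. Every library at 10 µM lay outside the range of those at 1 µM in 1547 rises and 621 falls, beside 43.5% of all genes tested. The genes called higher made up 42.6% to 47.6% of all counts in the libraries at 10 µM and 14.8% to 19.3% at 1 µM. Those called lower made up 1.71% to 2.25% at 10 µM and 6.17% to 6.86% at 1 µM. These shares describe genes chosen for this change and are no separate test of it. The balance of rises and falls depended on the scaling of the libraries. With scaling by total counts alone 974 genes were higher and 2426 lower, and with scaling to the listed reference genes 2892 were higher and 135 lower, as these scalings moved the median of all genes to −0.49 and 0.54. The reference scaling rests on summed counts, most of them from the polyubiquitin gene UBQ10, whose log2 change under TMM was −0.67.

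**Figure D1:**
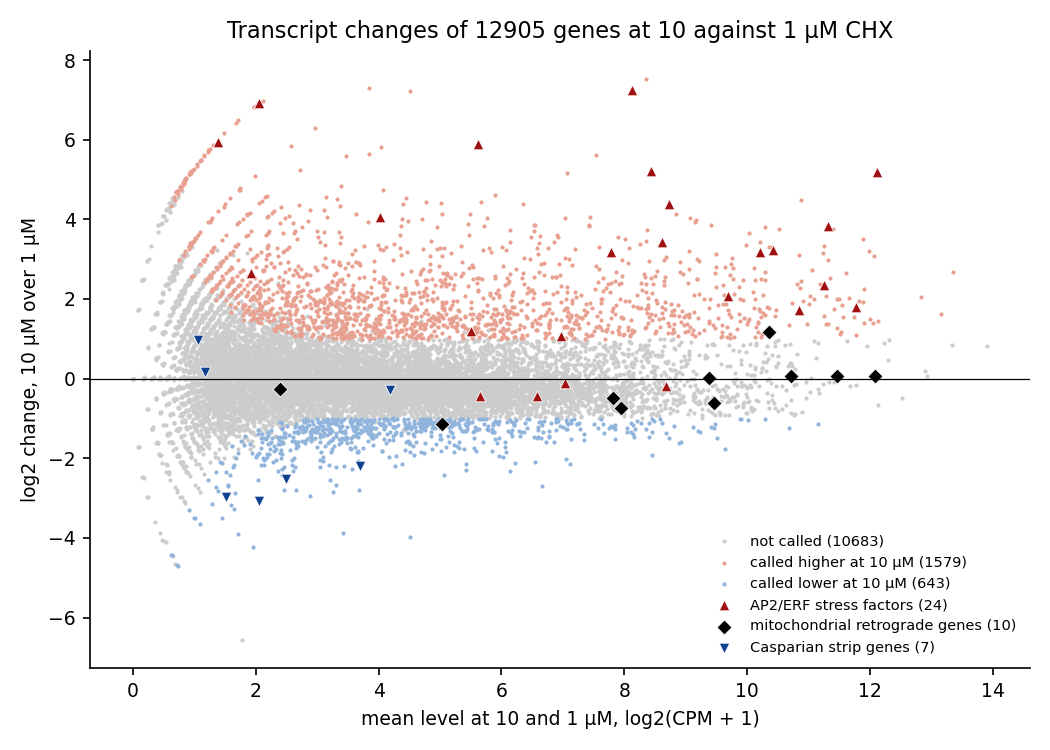
Each point is 1 gene, with its mean level at 10 and 1 µM on the x axis as log2(CPM + 1) and its log2 change at 10 over 1 µM on the y axis, and red and blue points are the 1579 genes called higher and the 643 called lower. Most of the 24 listed AP2/ERF stress genes (triangles) sit far above 0, the 10 mitochondrial retrograde genes (diamonds) lie between −1.15 and 1.17, and 4 of the 7 Casparian strip genes (inverted triangles) sit below −2.

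The step between 1 and 10 µM was set against its neighbours in the same model. At 1 against 0 µM 1748 genes were called higher (13.5%) and 403 lower (3.12%), and at 100 against 10 µM 282 were called higher (2.19%) and 320 lower (2.48%). These steps share the libraries at 1 or 10 µM, so the difference between 2 steps was tested as a contrast of its own, called at an adjusted p under 0.05. The log2 change from 1 to 10 µM lay above the change from 0 to 1 µM in 232 genes (1.8%) and below it in 1141 (8.84%). It lay above the change from 10 to 100 µM in 968 genes (7.5%) and below it in 266 (2.06%).

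AP2/ERF factors, which bind GCC box or dehydration-responsive DNA elements and relay ethylene, jasmonate and cold signals, gave 6 of the 10 largest rises among called genes with over 3 counts at each dose, at least 10 CPM and no overlap between libraries. A list of AP2/ERF stress factors, a part of the family, was chosen with earlier results of these data known. Of its 24 measured members 20 were higher at 10 µM and 4 were not called, beside 12.2% of all genes. Given that choice, this share is no independent evidence. The median log2 change was 3.17 (3.15 with genes at 0 counts set to their bound). The summed level of the list was 33360 to 38408 CPM at 10 µM and 5046 to 6207 CPM at 1 µM. Among called genes with over 3 counts at each dose the largest rise was that of AT5G21960, which is outside the list and is annotated with an Integrase-type DNA-binding domain, the AP2/ERF kind. Its libraries held 714, 544 and 689.8 CPM at 10 µM, against 3.2, 3.33 and 3.89 CPM at 1 µM (log2 change 7.53 ± 0.25, adjusted p = 1.49e-14). The locus AT1G74930 encodes ORA47, which switches on enzymes of jasmonate synthesis, and held 632, 378 and 655 CPM at 10 µM, against 3.56, 2.0 and 5.45 CPM at 1 µM (log2 change 7.25 ± 0.33, adjusted p = 3.39e-12). No library at 1 µM reached 6 CPM for either gene, and neither was called at 1 against 0 µM (adjusted p = 0.423 and 0.333). Their change from 1 to 10 µM was larger than that from 0 to 1 µM by 7.03 (adjusted p = 2.05e-08) and 6.53 (adjusted p = 6.06e-06) on the log2 scale. AT1G33760, which carries the same type of domain, had 427, 254 and 413 CPM at 10 µM, against 5.69, 7.33 and 9.34 CPM at 1 µM (log2 change 5.61 ± 0.29, adjusted p = 1.13e-11).

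ERF13 (AT2G44840), an ethylene response factor, became 1 of the 5 most abundant rising transcripts. It held 9911, 7583 and 8507 CPM at 10 µM, against 176, 204 and 338 CPM at 1 µM (log2 change 5.18 ± 0.25, adjusted p = 5.95e-12). ERF109 (AT4G34410), a redox-responsive factor of the same family, had 655, 600.2 and 763 CPM at 10 µM, against 15.3, 16 and 23.3 CPM at 1 µM (log2 change 5.21 ± 0.23, adjusted p = 3.06e-12). Both had already been called higher at 1 against 0 µM, by 3.3 and 2.96 on the log2 scale, and the later step was the larger of the 2 (adjusted p = 0.00276 and 0.00601). ERF105 differed in this, since its steps of 3.92 from 0 to 1 µM and 3.84 from 1 to 10 µM were not distinguished (adjusted p = 0.913). It held 4925, 4925 and 4392 CPM at 10 µM, against 324, 368 and 306 CPM at 1 µM. In each of these factors the lowest library at 10 µM was far above the highest at 1 µM. ESE1, an ethylene- and salt-inducible factor, averaged 94.8 ± 19.6 CPM at 10 µM and 1.59 ± 1.03 CPM at 1 µM (mean ± SD, n = 3 each, here and below), a log2 change of 5.88 ± 0.32. ERF11, ERF5, ERF6, ERF104 and ERF1B had log2 changes of 4.39, 3.42, 3.23, 3.17 and 3.17. The members not called were ABR1, RAP2.6, RAP2.6L and ORA59, with log2 changes of −0.10, −0.18, −0.43 and −0.44. Annotations of 47 of the 192 named genes overlap at least 1 other gene, and the strand used in counting is not stated, so reads of such pairs may not be fully separated. Of the genes described here and below these include ORA47, ERF109, ERF105, AT1G19210, AT3G13210, MYB73, HSFB2B, WRKY40, WRKY53, MYC2, SARD1, MPK3, CML40, FER1, UGT73B1, UGT74F2, AT2G20720, FRA8, EDA4, CYP98A3, 4CL1, CCR2, CASP1, PER64, EXPA7, LHCB1.5, PAD2, PDIL2-1 and HRE1. The other largest rises had few counts at 1 µM. AT1G65385, a transcribed pseudogene, AT5G45630, of the senescence regulator family, and AT3G13210, annotated as a crooked neck protein, had 243, 221 and 152 counts at 10 µM and 4, 4 and 5 at 1 µM (log2 changes 5.83 ± 0.58, 5.63 ± 0.89 and 4.83 ± 0.49).

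The CBF factors of the same family appeared at 10 µM from counts at or near 0. CBF1 had 53 counts over the libraries at 10 µM and 0 at 1 µM, at least 17.8-fold higher, and CBF4 had 26 and 0, at least 8.74-fold higher. CBF2 had 236 counts at 10 µM and 14 at 1 µM (log2 change 4.06 ± 0.39). COR15A, a cold-induced chloroplast protective protein and textbook target of these factors, was the only call among 12 measured dehydration and cold effectors (4 were lower under total counts and 1 was higher with scaling to the reference genes). It held 7.29, 3.3 and 1.77 CPM at 10 µM, against 13.2, 7.67 and 12.4 CPM at 1 µM (log2 change −1.36 ± 0.43, adjusted p = 0.0206). The call was lost without replicate 1 or 3 at 1 µM (adjusted p = 0.0804 and 0.0591) or replicate 2 or 3 at 10 µM (adjusted p = 0.0767 and 0.098), and without replicate 1 at 10 µM 2 of the 12 were lower.

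Other genes also emerged from the floor at 10 µM. Of the genes with 3 or fewer counts at 1 µM, the 5 most abundant at 10 µM were AT1G19210, DIP2, IPT7, AT4G19925 and PP2-A7. AT1G19210, a further protein of the AP2/ERF type, held 53, 33 and 43.7 CPM at 10 µM, and its ratio over 1 µM was 181 (95% interval 49.7 to 1501). DIP2, annotated as a ubiquitin ligase, held 41.1, 17.8 and 21.2 CPM at 10 µM, with a ratio of 228 (95% interval 40.5 to 9042). IPT7, an isopentenyltransferase of cytokinin synthesis, held 19.9, 17.5 and 22.1 CPM, with a ratio of 54.8 (95% interval 18.4 to 268). These exact binomial intervals cover counting error only. The 1 µM libraries of these genes held 1 to 3 counts in sum. The ratio was 111 for AT4G19925, a protein with a Toll/interleukin receptor domain, and 45.4 for the phloem protein PP2-A7.

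A single exon was annotated in 27.7% of the genes called higher, 33.9% of those called lower and 17.0% of all genes with an annotated coding transcript, and the median coding length was 1062, 933 and 1137 bases. Promoters, taken as the 250 bases before the RefSeq gene start of TAIR10.1, were searched on both strands for short motifs. The rapid stress response element CGCGTT was found in 7.09% of the 1579 promoters of rises, 1.09% of the 643 of falls and 3.06% of all 12830. The W-box core TTGAC was found in 57.1%, 46.8% and 46.5%. The GCC box GCCGCC was found in 41 rises, 12 falls and 252 of all, and the G-box CACGTG in 8.23%, 6.53% and 7.44%. The G-box letters hold those of the abscisic acid response core ACGTG, which was found in 28.2%, 25.5% and 24.8%. A match is only a string of letters and says nothing of binding.

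**Figure D2:**
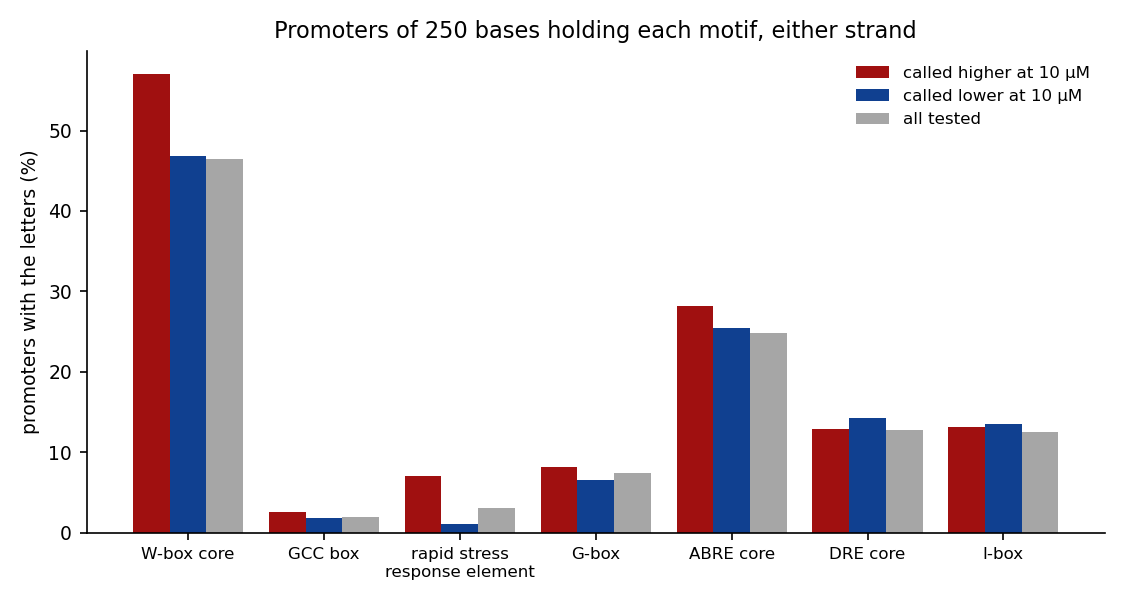
Bars give the percent of promoters of 250 bases that hold each motif on either strand, for genes called higher at 10 µM (red), called lower (blue) and all tested (grey). CGCGTT is found in 7.09% of rises, 1.09% of falls and 3.06% of all, while the shares of the I-box, the dehydration-responsive core and the GCC box differ by under 2 percentage points between the sets.

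The promoters of 3 rises are shown to place these letters in genes with large changes at 10 µM. NAC090 and AT1G19210 were picked because they hold CGCGTT, so the 3 do not show how common it is. Of the 24 promoters of the AP2/ERF list 1 holds it (4.17%). Capitals mark CGCGTT or its reverse AACGCG and TTGAC or its reverse GTCAA, read 5′ to 3′ on the strand of the gene. The ORA47 promoter (chr1:28143601-28143850, plus strand) holds neither. That of NAC090 (chr5:7410103-7410352, minus strand) holds 1 of each. That of AT1G19210 (chr1:6627689-6627938, minus strand) holds 1 CGCGTT and 2 TTGAC.
ORA47: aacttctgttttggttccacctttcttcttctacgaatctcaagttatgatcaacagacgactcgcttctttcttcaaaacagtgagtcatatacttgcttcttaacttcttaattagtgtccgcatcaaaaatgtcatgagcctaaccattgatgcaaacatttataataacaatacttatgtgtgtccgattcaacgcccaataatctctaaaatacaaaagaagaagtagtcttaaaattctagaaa
NAC090: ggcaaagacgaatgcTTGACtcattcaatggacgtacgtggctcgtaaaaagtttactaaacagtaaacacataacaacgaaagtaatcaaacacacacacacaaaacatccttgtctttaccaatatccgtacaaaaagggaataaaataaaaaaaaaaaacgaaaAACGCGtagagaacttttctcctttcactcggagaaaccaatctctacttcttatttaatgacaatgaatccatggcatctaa
AT1G19210: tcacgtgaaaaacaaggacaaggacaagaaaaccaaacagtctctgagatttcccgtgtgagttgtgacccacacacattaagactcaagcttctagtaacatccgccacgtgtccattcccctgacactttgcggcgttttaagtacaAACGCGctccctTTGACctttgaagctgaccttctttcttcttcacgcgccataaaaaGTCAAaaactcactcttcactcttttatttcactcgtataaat

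C2H2 zinc finger proteins of the ZAT and AZF group, repressors with an EAR motif that restrain stress and growth genes, were mostly higher. Of 12 measured members 10 were higher (12.2% of all genes) and 1, ZAT5 (−1.39), was lower (4.98%), a call that the scaling to reference genes ended. The median log2 change was 2.66. ZAT10 (AT1G27730) was the most abundant rising transcript of all. It held 20034, 16665 and 17693 CPM at 10 µM, against 2447, 2859.9 and 3178 CPM at 1 µM (log2 change 2.68 ± 0.20, adjusted p = 2.24e-09). At 100 µM it averaged 23624 CPM, a change of 0.38 over 10 µM that was not called (adjusted p = 0.248). ZAT7 had the largest rise of the group, with 1212, 887 and 942 CPM at 10 µM, against 54.5, 56.3 and 73.9 CPM at 1 µM (log2 change 4.04 ± 0.23, adjusted p = 6.21e-11). ZAT8 and AZF1 rose by 3.31 and 3.72 on the log2 scale, and ZAT12, a marker of oxidative and light stress, by 2.64.

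The other 3 of the 5 most abundant rises were HSPRO2, AGP1 and AT1G07135. HSPRO2, an ortholog of a sugar beet nematode resistance protein, averaged 13724 ± 961 CPM at 10 µM and 4484 ± 982 CPM at 1 µM (log2 change 1.61 ± 0.20, adjusted p = 3.5e-06). AGP1, an arabinogalactan protein of the cell surface, averaged 7682 ± 857 CPM at 10 µM and 915 ± 333 CPM at 1 µM (log2 change 3.07 ± 0.24, adjusted p = 3.19e-09), and its steps from 0 to 1 µM and from 1 to 10 µM were not distinguished (3.3 and 3.07, adjusted p of the difference = 0.798). AT1G07135, a glycine-rich protein, averaged 11733 ± 474 CPM at 10 µM and 2823 ± 479.7 CPM at 1 µM (log2 change 2.06 ± 0.19, adjusted p = 5.51e-08), less than its change of 5.02 from 0 to 1 µM (adjusted p of the difference = 6.65e-07).

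Regulators of mRNA turnover were among the rises (12.2% of all genes). CAF1a and CAF1b, subunits of the deadenylase that shortens poly(A) tails, held 2729 and 1486 CPM at 10 µM and 203 and 263 CPM at 1 µM, log2 changes of 3.75 ± 0.20 and 2.5 ± 0.20. SZF1 and CZF1, CCCH zinc finger proteins of salt stress, rose by 1.86 ± 0.17 and 2.08 ± 0.20. The other 3 of the 7 measured members of this list were not called, but 2 were lower under total counts and 1 without replicate 3 at 10 µM.

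WRKY factors, which bind the W-box of defence genes, were higher in 16 of 46 cases (12.2% of all genes), lower in 2 (4.98%) and not called in 28 (median log2 change 0.62). WRKY40, a repressor of early defence genes, held 4859, 3836 and 4952 CPM at 10 µM, against 529, 556 and 645 CPM at 1 µM (log2 change 2.98 ± 0.22, adjusted p = 1.28e-09). WRKY53, a senescence and defence factor, held 2179, 1766 and 1861 CPM at 10 µM, against 270.5, 276 and 293 CPM at 1 µM (log2 change 2.79 ± 0.19, adjusted p = 7.6e-10), and WRKY46 rose by 4.13 ± 0.35. WRKY65 and WRKY14 were lower, with log2 changes of −2.1 and −1.15. In 17 members the change from 1 to 10 µM was below that from 0 to 1 µM, beside 8.84% of all genes. With scaling by total counts 11 were higher and 9 lower, and with scaling to reference genes 24 and 1. Without replicate 1 at 1 µM 4 were lower.

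Listed stress NAC, stress MYB and heat shock genes rose in part, beside 12.2% of all genes called higher. Of 13 measured genes on the stress NAC list, a part of the NAC family, 4 were higher (10 with scaling to the reference genes). They were led by NAC090 with 344, 209 and 227 CPM at 10 µM, against 8.9, 6.0 and 6.61 CPM at 1 µM (log2 change 5.17 ± 0.26, adjusted p = 9.02e-12). NAC036 held 555 ± 45.4 CPM at 10 µM and 53.5 ± 3.46 CPM at 1 µM (log2 change 3.37 ± 0.18, adjusted p = 1.4e-11), and NAC062, a membrane-tethered factor of cold and endoplasmic reticulum stress, rose by 3.73 ± 0.48. Of 8 stress MYB genes 4 were higher (7 with scaling to the reference genes): MYB73, MYB77 and MYB51 by 2.68, 2.22 and 1.71, and MYB15 by 4.33. Among 18 heat shock genes 5 were higher. All 5 encode heat shock factors (HSFA2, HSFA4A, HSFB1, HSFB2A and HSFB2B, log2 changes 2.26, 1.66, 1.17, 1.46 and 1.5). Under total counts 2 were higher and 5 lower, and HSFB1, HSFB2A and HSFB2B lost their calls. Without replicate 3 at 1 µM or replicate 1 or 2 at 10 µM 1 gene was lower. HSC70-1, the major cytosolic chaperone, had 1237 ± 303 CPM at 10 µM and 2293 ± 243 CPM at 1 µM (log2 change −0.89 ± 0.19, adjusted p = 0.000977), and was called lower without replicate 2 at 10 µM, at −1.08.

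Genes of jasmonate signalling, in which JAZ proteins hold the factor MYC2 in check, were higher at 10 µM in 6 of 11 cases (12.2% of all genes). The other 5 were not called, and the median log2 change was 2.23 (1.93 with bounds). MYC2 held 529, 379 and 499.9 CPM at 10 µM, against 61.6, 51.7 and 76.6 CPM at 1 µM (log2 change 2.89 ± 0.20, adjusted p = 8.7e-10), more than its change of 1.3 from 0 to 1 µM (adjusted p of the difference = 0.00482). JAZ5 held 755, 683 and 742 CPM at 10 µM, against 69.4, 66 and 126 CPM at 1 µM (log2 change 3.06 ± 0.25, adjusted p = 7.41e-09), with replicate 3 highest at 1 µM. JAZ1 held 42.3 ± 12.7 CPM at 10 µM and 6.86 ± 1.15 CPM at 1 µM (log2 change 2.63 ± 0.27, adjusted p = 2.14e-07). For JAZ8, which had 9 counts at 10 µM and 0 at 1 µM, the rise was at least 3.03-fold. Of 13 genes of jasmonate synthesis 6 were higher and 7 not called, 1 of which was lower under total counts. The 6 were the lipoxygenases LOX3 and LOX4, AOS, AOC3, OPR3 and OPCL1, which follow each other along the pathway. OPR3 had 622, 493 and 678 CPM at 10 µM, against 65.5, 65.3 and 102 CPM at 1 µM (log2 change 2.95 ± 0.22, adjusted p = 2.42e-09), and LOX4 3890.4, 3718 and 4075 CPM at 10 µM, against 617, 627 and 1022 CPM at 1 µM (log2 change 2.37 ± 0.22, adjusted p = 4.21e-08). The other lipoxygenases LOX2 and LOX6 had log2 changes of 0.10 and 0.24 and were not called.

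Ethylene synthesis was split by enzyme, beside 12.2% of all genes called higher. The 5 measured ACC synthases were all higher (4 without replicate 2 at 1 µM), ACS8 by 2.64 ± 0.29, ACS7 by 2.12 ± 0.28, ACS11 by 2.08 ± 0.60, ACS6 by 1.92 ± 0.28 and ACS2 by 1.66 ± 0.25. The other 3 of the 8 measured genes were not called. They include the ACC oxidases ACO4 and ACO5, which make ethylene from the product of those enzymes (log2 changes −0.19 and 0.02). Of the 8 log2 changes 7 were above 0. ACS7 held 1218, 650.1 and 1040.0 CPM at 10 µM, against 169, 179 and 321 CPM at 1 µM, with replicate 2 lowest at 10 µM and replicate 3 highest at 1 µM, and the doses did not overlap.

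Genes of salicylic acid synthesis, signalling and effectors were higher in 8 of 13 cases (12.2% of all genes) and not called in 5, with a median log2 change of 2.0. PAD4, a lipase-like defence regulator, held 194, 114 and 126 CPM at 10 µM, against 14.9, 13.7 and 24.5 CPM at 1 µM (log2 change 3.04 ± 0.28, adjusted p = 4.42e-08). CBP60g, a calmodulin-binding activator of salicylic acid synthesis, held 2305, 1815 and 2254 CPM at 10 µM, against 283, 279.7 and 576 CPM at 1 µM (log2 change 2.49 ± 0.27, adjusted p = 4.39e-07). PBS3, SARD1, EDS1, SID2, EDS5 and NPR1 rose by 3.1, 3.65, 2.59, 2.0, 1.77 and 1.39. The effector genes PR1, PR2 and PR5 had log2 changes of 0.48, 0.51 and 0.38, none called. The others not called were DMR6, a salicylic acid hydroxylase, with a log2 change of 0.27, and the receptor gene NPR3, with 18 counts at 10 µM and 2 at 1 µM, a ratio of 9.08 (95% interval 2.2 to 80.7) and an adjusted p of 0.0661 in edgeR. With scaling to the reference genes NPR3 was called higher, as it was without replicate 1 at 1 µM or replicate 2 or 3 at 10 µM. Of the 13 genes 7 were higher under total counts, and also without replicate 2 at 1 µM or replicate 1 at 10 µM. With scaling to the reference genes 11 were. Without replicate 1 at 1 µM or replicate 2 at 10 µM the number stayed at 8 although NPR3 was among them. At 1 against 0 µM 6 of the 13 had been higher (13.5% of all genes), and at 100 against 10 µM 1 was lower (2.48%) and 12 were not called.

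Early immune genes encode receptors, their kinase cascade and peptides that amplify the alarm. They were higher in 19 of 26 cases, beside 12.2% of all genes, and not called in 7 (median 1.78). MPK3, a kinase of that cascade, held 151, 107 and 121 CPM at 10 µM, against 10.3, 11.3 and 13.6 CPM at 1 µM (log2 change 3.43 ± 0.20, adjusted p = 7.45e-11). PROPEP1, the precursor of a danger peptide, held 196, 216 and 224 CPM at 10 µM, against 31, 35.7 and 38.9 CPM at 1 µM (log2 change 2.59 ± 0.18, adjusted p = 6.14e-10), and PEPR1, the receptor of such peptides, 669.6, 601 and 579 CPM at 10 µM, against 87.2, 85.7 and 139 CPM at 1 µM (log2 change 2.57 ± 0.19, adjusted p = 2.24e-09). MKK9 averaged 3040.1 ± 218 CPM at 10 µM and 792 ± 97.1 CPM at 1 µM (log2 change 1.94 ± 0.19, adjusted p = 1.49e-07). At 1 against 0 µM 22 of the 26 had been called higher (13.5% of all genes). In 9 the step from 1 to 10 µM was smaller than that from 0 to 1 µM (8.84% of all genes). Cysteine-rich receptor-like kinases were higher in 14 of 27 cases (median 1.4). Under total counts 8 were higher and 1 lower, and without replicate 2 at 10 µM 13 were higher and 1 lower. CRK10 rose by 3.39 ± 0.37 and CRK31 by 2.49 ± 0.31. CRK10 and CRK11 are neighbouring genes whose annotations overlap, so their reads may not be fully separated. Of 9 measured calmodulin-like calcium sensors 5 were higher. CML37 held 3933, 3294 and 3599.8 CPM at 10 µM, against 124, 140.3 and 223 CPM at 1 µM (log2 change 4.47 ± 0.24, adjusted p = 1.95e-11), and CML40 and CML9 rose by 4.56 and 2.19.

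Of 4 measured GH3 genes of auxin conjugation 3 were higher (12.2% of all genes). GH3.1, of the family that conjugates auxin to amino acids, held 82.9, 92.4 and 110.0 CPM at 10 µM, against 4.27, 3.67 and 5.06 CPM at 1 µM (log2 change 4.45 ± 0.30, adjusted p = 5.96e-10), and GH3.3 and GH3.5 rose by 1.69 and 2.01. GH3.2 held 99.1, 143 and 129 CPM at 10 µM, against 136, 128 and 107 CPM at 1 µM and overlapped between doses (log2 change 0.00), after a change of 2.97 from 0 to 1 µM. Of 14 Aux/IAA repressors of auxin responses IAA19 (1.88 ± 0.18) and IAA5 (2.44) were called higher, and 1 alone was when any replicate at 1 µM or replicate 1 at 10 µM was left out. Under total counts 1 was higher and 3 lower. NCED3, the rate-limiting enzyme of abscisic acid synthesis, held 37.8, 30.7 and 51.2 CPM at 10 µM, against 1.42, 2.0 and 1.56 CPM at 1 µM (log2 change 4.53 ± 0.35, adjusted p = 2.57e-09). Among the clade A phosphatases that restrain abscisic acid signalling, HAI1 and HAB2 were higher by 2.09 and 1.23 and HAB1 was lower (log2 change −1.03), a call that ended without replicate 3 at 1 µM (adjusted p = 0.0585) or replicate 2 at 10 µM (adjusted p = 0.0717) and in DESeq2. HAB2 lost its call under total counts.

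The study's markers of responses to singlet oxygen, AT5G64870, BAP1, CML40 and a GRAM domain gene (AT5G13200), were higher in 4 of 4 cases (12.2% of all genes). The study may have chosen them with these libraries, so this is no independent evidence. AT5G64870, a membrane protein of the Band 7 type, held 2071, 1505 and 1957 CPM at 10 µM, against 136, 142 and 259 CPM at 1 µM (log2 change 3.37 ± 0.27, adjusted p = 5.76e-09). BAP1, a suppressor of cell death, held 3734, 3872 and 3527 CPM at 10 µM, against 494, 449 and 730.2 CPM at 1 µM (log2 change 2.73 ± 0.27, adjusted p = 8.89e-08). The 4 changes from 1 to 10 µM all exceeded those from 10 to 100 µM, beside 7.5% of all genes (adjusted p from 8.95e-05 for CML40 to 0.0252 for AT5G13200). Of the 2 measured markers of superoxide, FER1, an iron storage ferritin, held 249.6, 249 and 287 CPM at 10 µM, against 508, 298 and 329 CPM at 1 µM (log2 change −0.53 ± 0.19), and the HSP20-like gene AT4G21870 held 1.33, 0.990 and 1.77 CPM at 10 µM, against 9.25, 4.0 and 1.56 CPM at 1 µM (log2 change −1.86 ± 0.59, adjusted p = 0.0222), with overlapping libraries. That call was lost without replicate 1 at 1 µM (adjusted p = 0.262) or replicate 1 or 2 at 10 µM (adjusted p = 0.071 and 0.0762), and in DESeq2.

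**Figure D3:**
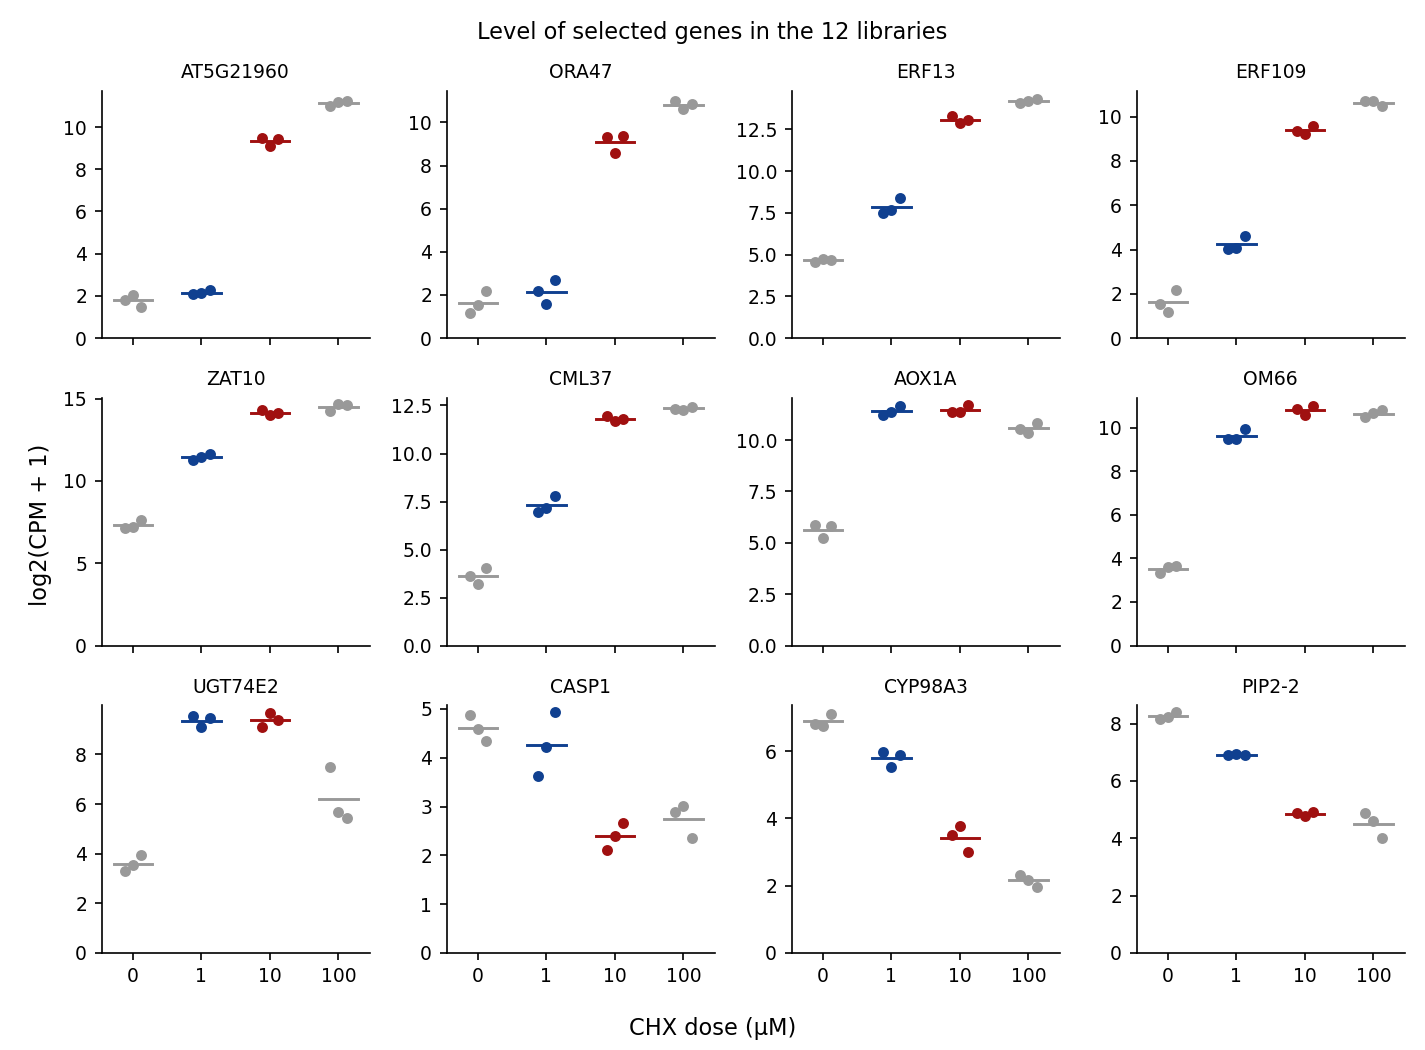
Each panel shows 1 gene, with the CHX dose in µM on the x axis and log2(CPM + 1) on the y axis, 1 point per library and a line at the mean of 3 libraries, with 10 µM in red and 1 µM in blue. AT5G21960 and ORA47 stay low at 1 µM and are high at 10 µM, AOX1A and UGT74E2 overlap between 10 and 1 µM, and CASP1, CYP98A3 and PIP2-2 are lower at 10 µM.

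A different pattern was seen in genes of mitochondrial retrograde signalling, which respond to impaired respiration through the alternative oxidase AOX1A and its companions. All 10 were called higher at 1 against 0 µM (13.5% of all genes), with a median log2 change of 5.9. From 1 to 10 µM 1 was higher, 1 lower and 8 not called, with a median of −0.12, which was 0.41 with scaling to the reference genes. In 10 of 10 the second step was below the first (8.84% of all genes). AOX1A held 2637, 2660.4 and 3404 CPM at 10 µM, against 2372, 2647 and 3233 CPM at 1 µM (log2 change 0.08 ± 0.19, adjusted p = 0.813), beside 56.9, 37 and 56.3 CPM at 0 µM. OM66, an ATPase of the outer mitochondrial membrane, was the exception above 2-fold, with 1852, 1551 and 2027 CPM at 10 µM, against 725, 710.3 and 978 CPM at 1 µM (log2 change 1.17 ± 0.18, adjusted p = 4.25e-05), a call lost under total counts. AT5G09570, a Cox19-like protein, was the exception below, with 16.6, 22.8 and 19.9 CPM at 10 µM, against 35.2, 38.3 and 58 CPM at 1 µM (log2 change −1.15 ± 0.27, adjusted p = 0.00279). Without replicate 3 at 1 µM its change was −0.87 and no longer reached 2-fold. AT2G04050, a MATE efflux transporter, had 446, 596 and 620.1 CPM at 10 µM, against 842, 802 and 899 CPM at 1 µM (log2 change −0.61 ± 0.18, adjusted p = 0.0116). From 10 to 100 µM 6 of the 10 were lower (2.48% of all genes), AT2G04050 with a log2 change of −1.63. Under total counts 3 of the 10 were lower at 10 than at 1 µM, and 2 were without replicate 2 at 10 µM.

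Of 12 UGT73 and UGT74 glycosyltransferases, which attach sugars to hormones and toxins, 8 were higher at 1 against 0 µM (13.5% of all genes). At 10 against 1 µM 4 were lower (4.98% of all genes) and 8 not called, and in 10 of 12 the second step was below the first (8.84%). UGT74E2 had 549, 809 and 661 CPM at 10 µM, against 746, 545 and 702 CPM at 1 µM (log2 change 0.02 ± 0.33), beside 11.3 CPM at 0 µM. UGT74F2, which glucosylates salicylic acid, held 50.4, 59.4 and 47.3 CPM at 10 µM, against 251, 216 and 168 CPM at 1 µM (log2 change −2.01 ± 0.19, adjusted p = 8.6e-08). UGT73B1 fell by 1.35 on the log2 scale, with 46.4, 51.5 and 39.7 CPM at 10 µM, against 118, 113 and 121 CPM at 1 µM. With scaling to the reference genes 1 of the 12 was higher and 1 lower, and 2 were lower in DESeq2, without replicate 2 at 1 µM or without replicate 1 at 10 µM. CYP81D8, a cytochrome P450 of xenobiotic responses, held 1968, 1664 and 2014 CPM at 10 µM, against 1311, 1357 and 1659.6 CPM at 1 µM (log2 change 0.38 ± 0.19, adjusted p = 0.138), after a change of 6.4 from 0 to 1 µM. Of 12 tau-class glutathione transferases GSTU11 was higher (2.93 ± 0.30) and GSTU24 and GSTU14 lower (−1.58 and −1.57). GSTU14 lost its call without replicate 1 at 1 µM (adjusted p = 0.0536) or replicate 2 or 3 at 10 µM (adjusted p = 0.0649 and 0.0534). Without replicate 2 at 10 µM 2 of the class were higher and none lower, and with scaling to the reference genes 5 and none. FBA8, a cytosolic aldolase and 1 of the 5 most abundant falls, was highest at 1 µM, with 847, 1138 and 949.5 CPM at 10 µM, against 2308, 2176 and 2469 CPM at 1 µM (log2 change −1.24 ± 0.17, adjusted p = 1.29e-05) and 534, 685 and 667 CPM at 0 µM. AT2G20720, a pentatricopeptide repeat gene whose annotation overlaps AT2G20710, held 450.5, 913 and 683 CPM at 10 µM, against 1417, 1429 and 1344 CPM at 1 µM and 15.4 CPM at 0 µM. Its log2 change of −1.03 lay at the 2-fold limit and lost its call without replicate 1 at 10 µM, at −0.81, and in DESeq2, at −0.97. The other abundant falls were GRP-3, a glycine-rich protein, with 1429.6 ± 662 CPM at 10 µM and 3142 ± 716 CPM at 1 µM, LTP5, a lipid transfer protein, with 837 ± 139 CPM at 10 µM and 1683 ± 271 CPM at 1 µM, and the antenna gene LHCB1.5 described below. Without replicate 1 at 10 µM the changes of GRP-3 and LTP5 were −0.83 and −0.88, and LTP5 also fell short of 2-fold without replicate 1 or 2 at 1 µM (−0.97 and −0.90) and in DESeq2. With scaling to the reference genes all 5 abundant falls fell short of 2-fold. Their log2 changes were then −0.72 for FBA8, −0.63 for GRP-3, −0.52 for AT2G20720, −0.47 for LTP5 and −0.47 for LHCB1.5.

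**Figure D4:**
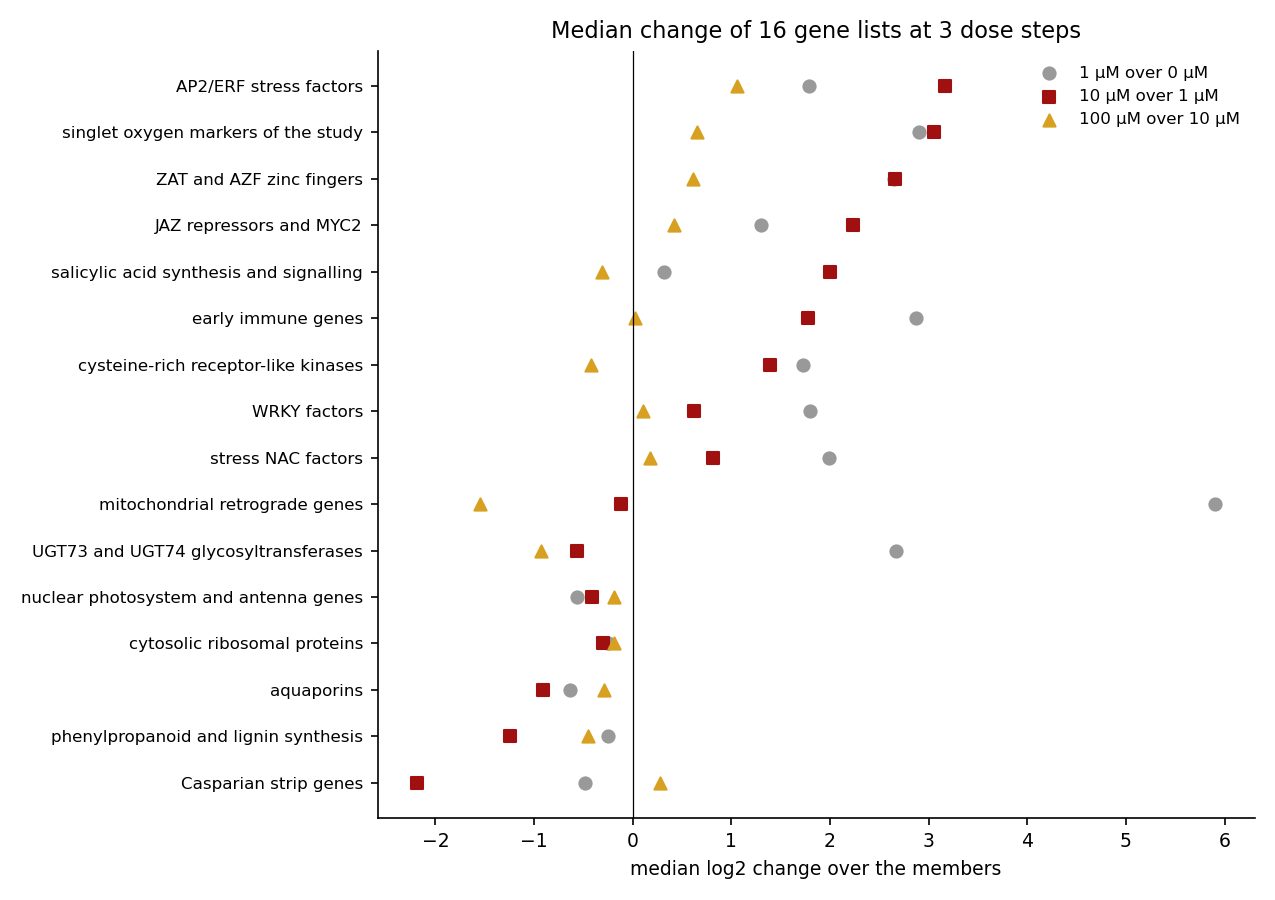
The x axis gives the median log2 change over the measured members of each of 16 lists, and the markers stand for the 3 steps, 1 over 0 µM (grey circles), 10 over 1 µM (red squares) and 100 over 10 µM (yellow triangles), which share libraries. The mitochondrial retrograde genes have medians of 5.9, −0.12 and −1.54, and the listed AP2/ERF stress genes of 1.79, 3.17 and 1.06.

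Among called genes with over 3 counts at each dose, at least 10 CPM at 1 µM and no overlap between libraries the largest fall was that of VTL5 (AT3G25190), a vacuolar iron transporter-like protein. It held 2.32, 2.64 and 2.65 CPM at 10 µM, against 37.4, 32.3 and 52.9 CPM at 1 µM (log2 change −3.98 ± 0.28, adjusted p = 1.03e-09), while its 0 µM mean was 33.8 CPM, and the 2 steps differed (step difference −4.25, adjusted p = 1.64e-07). AT5G20820, a SAUR-like auxin-responsive gene, held 1.99, 0.990 and 0.442 CPM at 10 µM, against 16.4, 18 and 20.2 CPM at 1 µM (log2 change −3.87 ± 0.44, adjusted p = 8.55e-07) and was higher again at 100 µM, with 5.99 CPM. FRA8, a glucuronyltransferase of xylan synthesis, peaked at 1 µM. It held 21.2, 36.3 and 21.6 CPM at 10 µM, against 168, 144 and 208 CPM at 1 µM (log2 change −2.71 ± 0.27, adjusted p = 1.49e-07), beside 26.4, 33.2 and 58.6 CPM at 0 µM. TINY, an AP2/ERF factor of growth and dehydration responses that is outside the AP2/ERF list above, was lower. It held 4.31, 1.65 and 0.883 CPM at 10 µM, against 13.2, 13.7 and 15.9 CPM at 1 µM (log2 change −2.56 ± 0.38, adjusted p = 2.92e-05). AT1G68880, which encodes the basic leucine zipper protein bZIP8, held 1.99, 2.31 and 1.77 CPM at 10 µM, against 15.3, 15 and 14.8 CPM at 1 µM (log2 change −2.85 ± 0.41, adjusted p = 2e-05). ATL8, a RING-type ubiquitin ligase, held 28.5, 17.8 and 22.5 CPM at 10 µM, against 106, 119 and 121 CPM at 1 µM (log2 change −2.33 ± 0.24, adjusted p = 2.12e-07). BAT1, an acyltransferase of brassinosteroid metabolism, EDA4, a lipid transfer type protein, and CLE2, a signalling peptide, had log2 changes of −2.79 ± 0.46, −2.94 ± 0.47 and −2.66 ± 0.53.

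Genes of phenylpropanoid and lignin synthesis, the route from phenylalanine to cell wall polymers, were lower at 10 µM in 8 of 19 cases (4.98% of all genes) and higher in 1, with a median log2 change of −1.24. CYP98A3, the hydroxylase in the middle of the monolignol route, held 10.3, 12.5 and 7.07 CPM at 10 µM, against 61.2, 44.7 and 58 CPM at 1 µM (log2 change −2.43 ± 0.23, adjusted p = 4.87e-08). HCT, the acyltransferase acting before and after it, held 40.1, 59.4 and 53 CPM at 10 µM, against 206, 207 and 265 CPM at 1 µM (log2 change −2.15 ± 0.21, adjusted p = 7.65e-08). HCT had changed by −0.15 from 0 to 1 µM, and the difference between its steps was called (adjusted p = 0.000213). 4CL1, which activates the acids for that route, held 25.5, 28.4 and 22.1 CPM at 10 µM, against 81.1, 75 and 137 CPM at 1 µM (log2 change −1.94 ± 0.25, adjusted p = 4.35e-06). CAD4, CSE, CCOAOMT1, 4CL2 and CAD5 were lower, with log2 changes of −2.19, −1.82, −1.78, −1.57 and −1.48. PAL1 and PAL2, at the entry of the pathway, had log2 changes of −0.73 and 0.01 and were not called. CCR2, a cinnamoyl-CoA reductase known from defence, went the other way, with 1999.9, 1959 and 2154 CPM at 10 µM, against 448, 499 and 847 CPM at 1 µM (log2 change 1.77 ± 0.21, adjusted p = 1.56e-06), while CCR1, its developmental counterpart, had a log2 change of −0.92. Under total counts 15 of the 19 were lower.

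Aquaporins, the water channels of plasma membrane and vacuole, were lower in 8 of 19 cases, beside 4.98% of all genes (median −0.91). PIP2-2 held 28.2, 26.1 and 29.1 CPM at 10 µM, against 119.9, 122 and 118 CPM at 1 µM (log2 change −2.11 ± 0.19, adjusted p = 2.92e-08). TIP1-2 held 315, 417 and 356 CPM at 10 µM, against 1246, 1364 and 1064 CPM at 1 µM (log2 change −1.76 ± 0.19, adjusted p = 3.6e-07). PIP1-1 and PIP1-2 fell by 1.54 and 1.48 on the log2 scale, and both lost their call with scaling to the reference genes, under which 2 of the 19 were lower. Under total counts 16 were lower. The step from 1 to 10 µM was below that from 10 to 100 µM in 5 members, beside 2.06% of all genes.

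Casparian strip genes, which build the diffusion barrier of the root endodermis, were lower in 4 of 7 cases, beside 4.98% of all genes (median −2.18). CASP1, a membrane scaffold of the strip, held 3.31, 4.29 and 5.3 CPM at 10 µM, against 11.4, 17.7 and 29.6 CPM at 1 µM (log2 change −2.18 ± 0.35, adjusted p = 6.71e-05). CASP2 and PER64, a further scaffold protein and the peroxidase of the strip, had 5 and 11 counts at 10 µM and 46 and 64 at 1 µM, log2 changes of −3.08 ± 0.67 and −2.51 ± 0.53. MYB36, the activator of this set, had a log2 change of 0.17 and was not called. All these counts were low. The 7 measured root markers, which include CASP1, summed to 109.6 to 111.6 CPM at 0 µM, 174 to 219.8 CPM at 1 µM and 113 to 117 CPM at 10 µM, and 3 of the 7 were lower at 10 than at 1 µM (1 with scaling to the reference genes). NRT2.1, a root nitrate transporter, held 6.96, 3.63 and 5.3 CPM at 10 µM, against 12.5, 18 and 14 CPM at 1 µM (log2 change −1.48 ± 0.31, adjusted p = 0.00108), and EXPA7, an expansin of root hairs, 10.3, 4.95 and 8.39 CPM at 10 µM, against 17.1, 17.3 and 21.8 CPM at 1 µM (log2 change −1.25 ± 0.33, adjusted p = 0.00635), or −0.99 without replicate 2 at 10 µM. The 5 shoot markers summed to 8126 to 9821 CPM at 10 µM and 7702 to 9937 CPM at 1 µM, and 1, CAB3, was lower. In whole seedlings fewer cells of a type and less RNA per cell cannot be told apart, and the part of the root markers' change in the falls was not tested.

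**Figure D5:**
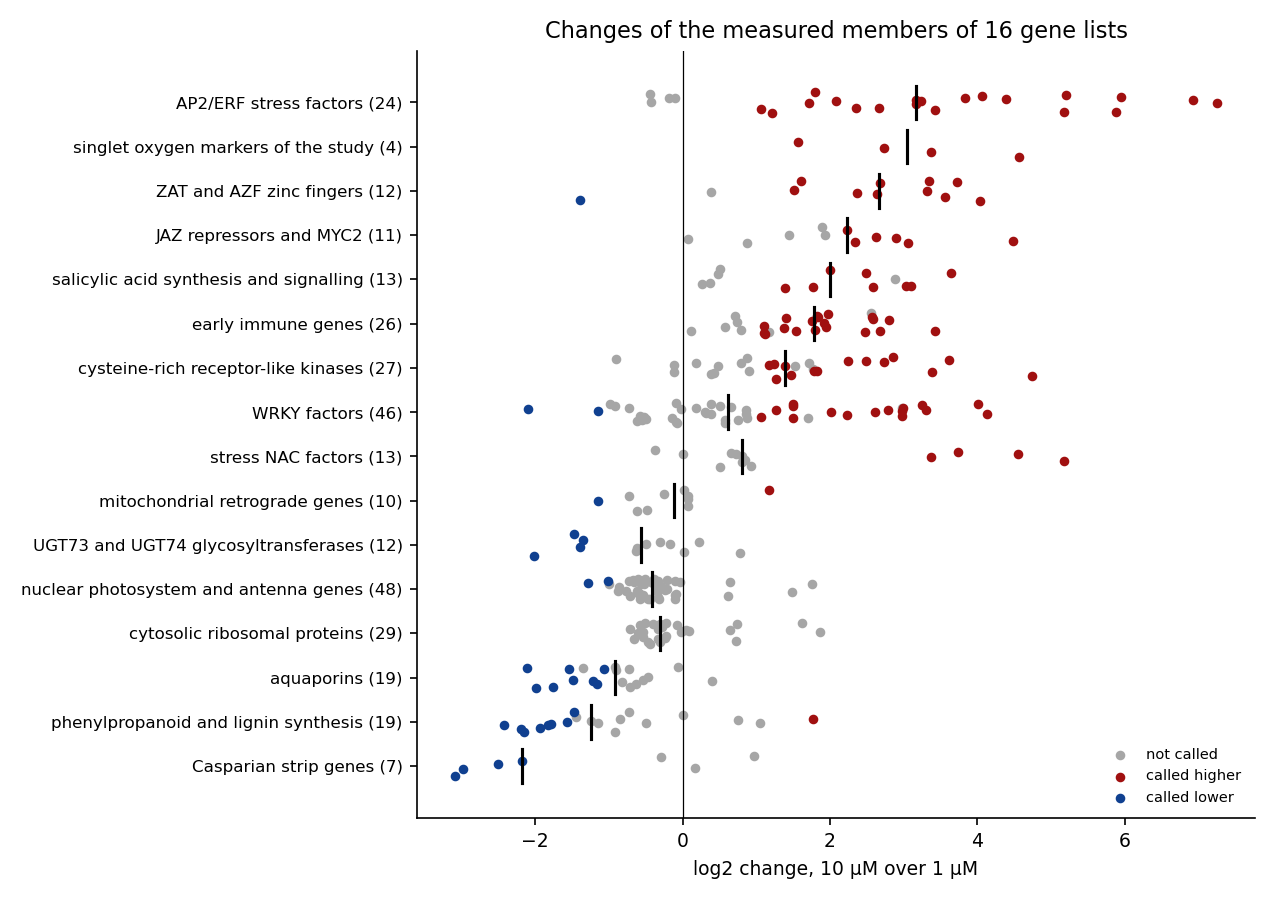
Each point is 1 measured member of a list, placed by its log2 change at 10 over 1 µM, in red where called higher, in blue where called lower and in grey where not called, with a black bar at the median and the number measured in parentheses. The AP2/ERF list has 20 red points and the early immune list 19, and the blue points gather in the aquaporin (8), phenylpropanoid (8) and Casparian strip (4) lists.

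Of 48 nuclear genes for photosystems and antennae 2 were lower, near the 4.98% of all genes, and 46 were not called (median −0.41). With scaling to the reference genes 2 were higher and the median was 0.12, and under total counts 21 were lower. Without replicate 2 at 10 µM 7 were lower, without replicate 3 at 1 µM none was, and without replicate 2 at 1 µM or replicate 3 at 10 µM 1 was. The 2 were LHCB1.5 (AT2G34420), with 643, 703 and 559 CPM at 10 µM, against 955, 1576 and 1301 CPM at 1 µM (log2 change −1.01 ± 0.19, adjusted p = 0.000374), and CAB3, with 195, 154 and 156 CPM at 10 µM, against 246, 431 and 547 CPM at 1 µM (log2 change −1.28 ± 0.30, adjusted p = 0.0026). Both are members of a family of near-identical antenna proteins, whose reads may be split between copies. Without replicate 3 at 1 µM both fell short of 2-fold (−0.97 and −0.99), as did LHCB1.5 without replicate 2 at 1 µM (−0.83) or replicate 3 at 10 µM (−0.92), and in DESeq2. Of 29 cytosolic ribosomal protein genes 0 were called by edgeR or DESeq2, and at an unadjusted p under 0.05 3 lay higher and 9 lower (median −0.30, or 0.24 with scaling to the reference genes). Under total counts 6 were lower in edgeR, while 3 were higher with scaling to the reference genes. In a fit of the 6 libraries alone 2 were higher, and 2 were with a replicate block. RACK1A, a scaffold protein of the small ribosomal subunit, held 211, 281 and 199.6 CPM at 10 µM, against 390.1, 388 and 352 CPM at 1 µM (log2 change −0.71 ± 0.17). Of 26 subunits of the proteasome only 1 was called, beside 4.98% of all genes called lower. This was PAD2, with 36 ± 6.58 CPM at 10 µM and 77.9 ± 11.9 CPM at 1 µM (log2 change −1.11 ± 0.19, adjusted p = 0.000156), a change of −0.99 without replicate 2 at 1 µM. Without replicate 2 or 3 at 10 µM 2 subunits were lower, under total counts 7 were and with scaling to the reference genes none was. Of 14 genes of the unfolded protein response (3 higher with scaling to the reference genes, 2 lower under total counts) BZIP60, a factor of that response, was higher (1.51 ± 0.20) and PDIL2-1 lower (−2.21, at 6 counts at 10 µM and 30 at 1 µM). The call of PDIL2-1 was lost in DESeq2 and without any single library but replicate 3 at 1 µM (adjusted p 0.0799 to 0.225). BIP1, the major chaperone of the endoplasmic reticulum, held 172, 139 and 125 CPM at 10 µM, against 224, 240.0 and 225 CPM at 1 µM (log2 change −0.66 ± 0.20). In edgeR none of the 55 plastid-encoded and 19 mitochondrion-encoded transcripts was called, in DESeq2 1 plastid-encoded transcript was higher, and at an unadjusted p under 0.05 3 plastid-encoded and 0 mitochondrion-encoded ones were higher and none lower (medians 0.16 and 0.27), although a poly(A)-based method samples such transcripts poorly. Without replicate 2 of either dose 1 plastid-encoded transcript was higher, as was 1 mitochondrion-encoded one without replicate 3 at 1 µM. With scaling to the reference genes 5 plastid-encoded and 3 mitochondrion-encoded transcripts were higher, with the size factors of DESeq2 in edgeR 1 plastid-encoded one was higher, and under total counts 1 mitochondrion-encoded one was lower.

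Among 14 factors and targets of nonsense-mediated decay, a translation-dependent route of mRNA removal, 1 was higher and 1 lower (3 lower under total counts, none with scaling to the reference genes). AT5G45430, a protein kinase gene, held 454, 374 and 442 CPM at 10 µM, against 63.7, 59.3 and 90.3 CPM at 1 µM (log2 change 2.58 ± 0.20, adjusted p = 3.19e-09) after a change of −0.32 from 0 to 1 µM (step difference 2.9, adjusted p = 5.04e-06). GRP8, an RNA-binding protein of the clock, held 295, 418 and 298 CPM at 10 µM, against 918, 900.0 and 706 CPM at 1 µM (log2 change −1.32 ± 0.18, adjusted p = 1.23e-05), and its paralog GRP7 had a log2 change of −0.81 ± 0.19. Of the 11 measured reference genes ACT2, an actin, was called higher, with 55.4, 36.3 and 38.4 CPM at 10 µM, against 11.4, 6.67 and 8.95 CPM at 1 µM (log2 change 2.27 ± 0.63, adjusted p = 0.00935), after 103, 54.5 and 11.6 CPM at 0 µM. UBQ10, a polyubiquitin gene, held 2692, 3996 and 3699.6 CPM at 10 µM, against 5821, 5851 and 4903 CPM at 1 µM (log2 change −0.67 ± 0.19, adjusted p = 0.00924), and the scaling to these genes includes both. That scaling uses the summed counts of the reference genes, 4969 to 6134 CPM at 10 µM and 7570 to 8523 CPM at 1 µM. UBQ10 made up most of this sum at both doses, so the scaling follows UBQ10 more than the other members. Without replicate 3 at 1 µM 2 reference genes were higher.

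Of 13 hypoxia genes 3 were higher (12.2% of all genes) and 2 lower (4.98%). Under total counts 1 was higher and 4 lower, and with scaling to the reference genes 3 and 0. HRE2, an ethylene response factor of low oxygen, was higher with 384, 391 and 360.4 CPM at 10 µM, against 139, 170.3 and 153 CPM at 1 µM (log2 change 1.29 ± 0.18, adjusted p = 8.41e-06), while its paralog HRE1 and the pyruvate decarboxylase PDC2 lay at the 2-fold limit on the lower side (−1.01 and −1.01), calls that ended in DESeq2. They also ended without replicate 3 at 1 µM (−0.84 and −0.88) or replicate 2 at 10 µM (−0.88 and −0.99), and that of PDC2 without replicate 3 at 10 µM. AT4G24110 was higher by 1.57 on the log2 scale, and the pyruvate decarboxylase PDC1 by 1.12 (adjusted p = 0.0477), a call lost in DESeq2, under total counts and without any single library but replicate 2 at 10 µM. Among 7 iron genes (3 lower under total counts) PYE, a factor of iron deficiency, was higher by 1.48 ± 0.28 and VTL5 was lower. Of 20 xyloglucan endotransglucosylases, which loosen cell walls, 3 were higher and 1 lower (7 and 0 with scaling to the reference genes, 2 and 4 under total counts). XTH18 held 1629.6, 1001 and 1146 CPM at 10 µM, against 138, 143 and 261 CPM at 1 µM (log2 change 2.8 ± 0.40, adjusted p = 1.46e-05). XTH19 had 40 counts at 10 µM and 0 at 1 µM, at least 13.4-fold higher, XTH17 had 60 counts at 10 µM and 15 at 1 µM (log2 change 2.02, adjusted p = 0.0283, lost under total counts, without replicate 2 or 3 at 1 µM and without replicate 1 or 3 at 10 µM), and XTH31 was lower (log2 change −1.41). Among 18 chlorophyll synthesis genes GLK2, a factor of chloroplast development, was lower with 9.61, 20.8 and 14.6 CPM at 10 µM, against 38.1, 36 and 30.7 CPM at 1 µM (log2 change −1.22 ± 0.25, adjusted p = 0.000982), or −0.97 without replicate 1 at 10 µM. It was the 1 call among these 18 genes, beside 4.98% of all genes called lower. Under total counts 2 of the 18 were lower, and 4 were higher with scaling to the reference genes. Of 19 Calvin cycle genes 1 was lower (4.98% of all genes). None was without replicate 1 of either dose, 2 were without replicate 3 at 1 µM and 3 without replicate 2 at 10 µM. Under total counts 5 were lower and with scaling to the reference genes none was. Of 15 clock genes 1 was lower (4.98% of all genes), and 2 without replicate 1 at 1 µM or replicate 2 at 10 µM. Under total counts 6 were lower, and with scaling to the reference genes 2 were higher and none lower.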

How the data were processed

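Whole seedlings were compared over 12 bulk MARS-seq libraries, 3 at each CHX dose. The authors deposited counts per gene, made by demultiplexing with bcl2fastq 2.17.1.14, trimming with cutadapt 1.8.3, alignment to Araport11 with STAR and counting with HTSeq, per the submitters' processing notes and the study's methods. The deposit states that no filter on unique molecular identifiers was applied, so PCR copies may be among the counts. Columns with size-factor normalised signal and with log2 values, which the authors deposited beside the counts, were not tested. In each listed gene the highest library held at least 6 counts.

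Counts were scaled by TMM and fitted in edgeR 4.0.16 (R 4.3.3) by the quasi-likelihood test over the 12 libraries, with a mean per dose. The p-values were adjusted by the Benjamini-Hochberg method over 12905 genes. A call required an adjusted p under 0.05 and a 2-fold change. Standard errors follow log2 changes after ±. Ratios with 1 to 3 counts in a dose carry exact binomial 95% intervals, which cover counting error only. Steps were compared as contrasts. Named genes were first the 10 largest rises and falls and the 5 most abundant of each. These were called genes with over 3 counts at each dose, at least 10 CPM at the higher one and libraries that did not overlap. Named without these limits were the 5 most abundant called genes from the floor, up to 4 members per list by smallest p, and the study's markers. Others were chosen after their values were seen. Members and lists were chosen with earlier results of these data known. The fit was run on simulated counts with a small set of genes changed, as many up as down, and its outcome is not given here. Such counts do not test the scaling where rises are many. DESeq2 1.42.0, other scalings and filters, a replicate block and leaving out each library were alternatives. Sequences and gene structure came from RefSeq TAIR10.1, which matched 12831 of the 12905 gene IDs. Some items withheld for evaluation are not reported here.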

Additional observations from a re-analysis of the deposited data

How the results depend on the processing

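Counts of calls at 10 against 1 µM (1579 rises, 643 falls) moved most with the scaling of the libraries. Under total counts alone they were 974 and 2426, and with scaling to the reference genes 2892 and 135, which set the share of higher genes at 28.6% and 95.5%, beside 71.1% with TMM. With an adjusted p alone and no fold limit 2016 were higher and 1562 lower. Without single libraries the range was 1299 to 1626 higher and 504 to 734 lower. Genes whose step from 1 to 10 µM differed from that from 0 to 1 µM numbered 1373, and 2205 with scaling to the reference genes. DESeq2 called 1501 higher and 471 lower, of which 1438 and 471 were also called by edgeR. Of 192 named genes, which include genes not called, 184 kept the same status (called or not called) with the size factors of DESeq2. The number was 182 in DESeq2, 150 with either extreme scaling and 173 to 187 without single libraries. No named gene that was called changed sign, while sign changes of genes not called were not counted. Replicate numbers did not pair the libraries (correlation of deviations −0.069, 0.082 and 0.047). With the replicate block 1627 genes were higher and 654 lower, and 189 of the 192 named genes kept the same status. Folds are limited by depth where a dose held 3 or fewer counts.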
